A study of Acipenser sinensis with 45 samples.

Results

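The 100 unigenes described here were the ones whose level in the pituitary of stage II male Acipenser sinensis (MP) stood furthest above every other tissue group of the study, out of 121952 unigenes measured. A unigene is a transcript sequence assembled from the reads without a genome. Its level is given in FPKM, the number of sequenced fragments after scaling for transcript length and library size. For each unigene, log2(FPKM + 1) was averaged within the 9 groups of libraries, and the score was the MP mean minus the highest mean among the other 8 groups. The score was above 0 for 6527 unigenes, and the 100 highest scores were taken. Because the members were chosen by these measured values, every MP value set against another group is a description with no test. Tests between groups were made only where neither group was MP. The other 8 groups entered the rule too, because the highest of their means set the score. The tests between them are therefore not free of the choice, and shares over all unigenes are given for comparison only.

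The pituitary is the gland below the hypothalamus that links the brain to the gonads and other endocrine organs. Its anterior lobe holds separate cell types that make growth hormone, prolactin, proopiomelanocortin peptides, thyrotropin and the gonadotropins, and its posterior lobe holds nerve endings from the hypothalamus. In fish, the gonadotropin-producing cells are driven by hypothalamic neurons and act on the testis or ovary, and the tissue's makeup changes as the animals grow and mature.

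The fish came from a captive breeding population, and 3 tissues of each of 15 fish were sequenced, which gave 45 libraries named by a letter for the fish and one for the tissue (H for hypothalamus, P for pituitary, G for gonad). MH, MP and MG came from 6 stage II males over 4 years old, FH, FP and FG from 3 stage II females over 4 years old, and UH, UP and UG from 6 stage I fish of 1 year whose sex could not be told. Stage and age therefore change together, and a difference between stage II and stage I is equally one between older and younger fish. No fish was treated or genetically altered, and each library came from 1 tissue of 1 fish. The p-values thus rest on the spread between fish within a group. In UP over UH, UP over UG and FP over FH, both groups come from the same fish. The p-values given for these comparisons are from a fit that left out this pairing. FP2, FP3 and the other 4 libraries of those 2 females were sequenced on HiSeq 4000 and the remaining 39 libraries on HiSeq 2000. Platform thus differs among the females only. For male fish 4, the tissue labels of hypothalamus and pituitary are the reverse of the sample codes, and the codes were used here. Across all unigenes, MP4 was nearest to another MP library and MH4 to another MH library. With the 2 libraries exchanged, 71 of the 100 members would still have been chosen. No member would then have all its MP libraries above all other libraries. A proxy for the relative sequencing depth was read from the smallest steps between low values. It was 0.862 to 0.944 in MP, 0.790 to 1.03 in FP and 0.930 to 0.987 in UP. This proxy was not set against the clean reads that the paper lists for each library. The table holds no read counts, so no counting interval can be given for a single value. The files used here pair no unigene with a gene name, and 0 of the identifiers matched any of the 78555 genes of the RefSeq annotation of the species. The members are therefore named by their identifiers, and no hormone gene or cell type marker could be used to check the dissected tissue.

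The scores of the members ran between 1.11 and 2.35 with a median of 1.32, which on the FPKM + 1 scale are folds of 2.16, 5.10 and 2.50 over the next group for the lowest, highest and median score. The last inside the limit were CL15463.Contig1_All with a score of 1.116 and Unigene77288_All with 1.114. The first outside it were Unigene36762_All with 1.111 and Unigene64545_All with 1.107. No gap in the scores set the members apart from the unigenes that followed. Unigenes beside the limit differed widely in level. Unigene36762_All averaged 108 ± 22.3 FPKM in MP (SD, n = 6), while CL15463.Contig1_All averaged 3.30 ± 3.19 FPKM.

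All members had their highest mean log2(FPKM + 1) in MP by the rule, and most also reached a group mean of 1 FPKM in UP. Members with a mean under 1 FPKM in all other groups were not counted. The next group after MP was UP for 47 members and FP for 24, so that for 71 of 100 another pituitary group came next. It was MH for 19 members, MG for 6, FH for 2, FG for 1 and UH for 1. How often another pituitary group came next over all unigenes was not computed, so nothing about the members is read from these counts. The median over the members of their group mean was 9.87 FPKM in MP, 2.14 FPKM in FP, 2.40 FPKM in UP, 1.21 FPKM in MH, 0.175 FPKM in FH, 0.538 FPKM in UH, 0.545 FPKM in MG, 0.0510 FPKM in FG and 0.219 FPKM in UG. The single female pituitaries differed, with a median over the members of 3.42 FPKM in FP1, 0.947 FPKM in FP2 and 0.578 FPKM in FP3. Group means under 1 FPKM were found for 34 members in FP, for 21 in UP, for 47 in MH and for 88 in FG. The working name of male pituitary-specific unigenes was thus not borne out for most members. All are called here by the rule that took them. In whole tissue, fewer cells of a type and less RNA per cell cannot be told apart.

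**Figure D1:**
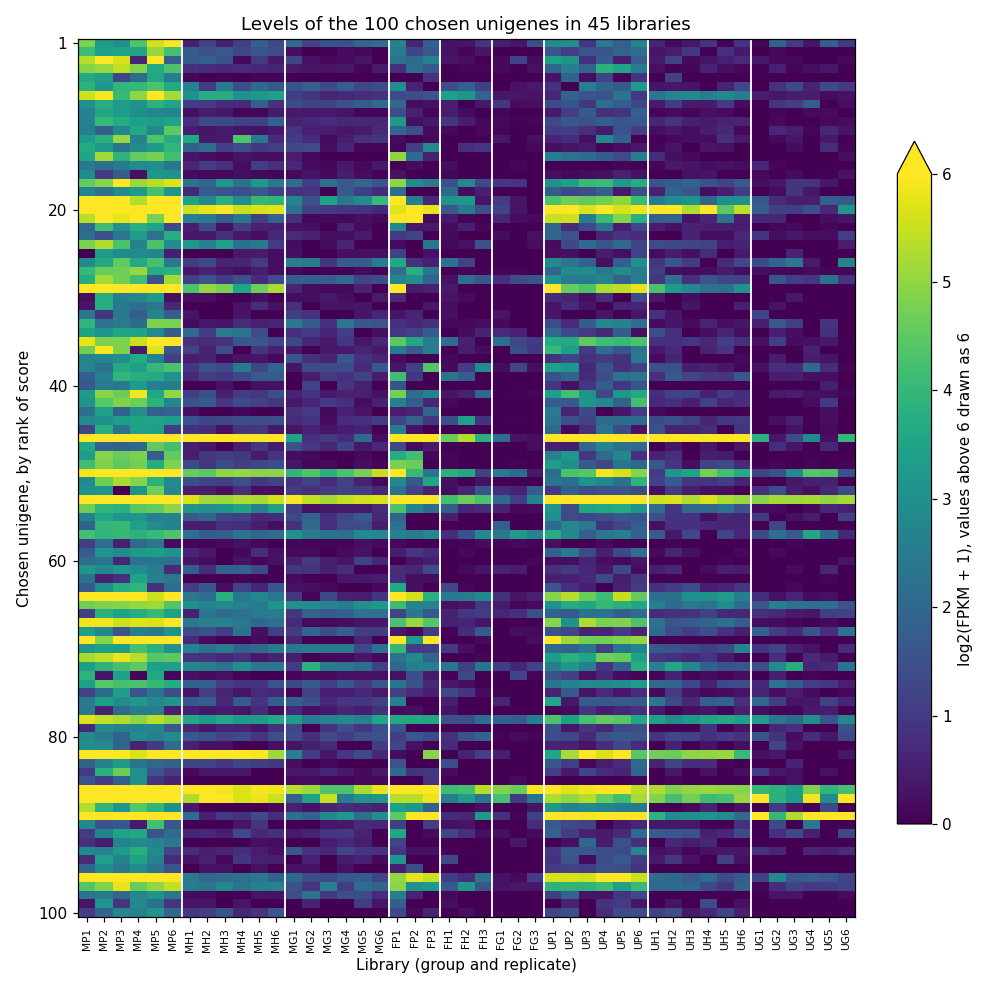
Level of each of the 100 members (rows, by rank of score) in each of the 45 libraries (columns, grouped with MP at the left), as log2(FPKM + 1) by colour. The MP columns are bright in nearly all rows. The 6 UP columns and FP1 are the next brightest, and FP2 and FP3 are dimmer than FP1.

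All 6 MP libraries lay above all 39 other libraries in 17 members. Of the 107188 unigenes that reached 1 FPKM in 3 or more libraries this held for 0.069%. The members were chosen on these same values, so nothing is read from the difference. Against single groups, the MP libraries lay entirely above UP in 37 members (2.44% of all those unigenes), above FP in 47 (20.5%), above MH in 77 (10.9%) and above MG in 72 (12.2%). For 63 members at least 1 MP library was at or below the highest stage I pituitary. Summed over the members, the level was 4613 to 7171 FPKM in MP, 1901 to 2361 FPKM in FP, 1849 to 2658 FPKM in UP and 712 to 936 FPKM in MH.

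A check that did not use the library in question was made by repeating the choice with 1 MP library left out and reading that library afterwards. The left-out library was above the highest mean of the other 8 groups in 78 of 100 newly chosen unigenes for MP1 (6.64% of all 107188 unigenes), in 87 for MP2 (7.77%), in 91 for MP3 (7.45%), in 84 for MP4 (11.7%), in 88 for MP5 (9.84%) and in 81 for MP6 (7.08%). Each of the 6 fish thus lay above that mean in most of the unigenes chosen with the other 5. The means of the other 8 groups had helped to choose these unigenes, so only the MP side was left out. Nothing is therefore read from the difference to the shares of all unigenes. The median excess over the next group in the left-out library was 0.86 for MP1 and for MP6 on the log2(FPKM + 1) scale, and 1.25 to 1.46 for the other 4 libraries. Of the members as described, 81 to 86 were chosen again.

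The member with the highest score, Unigene37003_All, reached 7.22 FPKM at the lowest, 23.2 FPKM at the median and 105 FPKM at the highest MP library, against 0.922, 4.94 and 6.95 FPKM over UP. Its FP libraries held 5.46, 0.536 and 2.64 FPKM. The MP libraries did not overlap any other group, but the highest, MP6, was far above MP3 and their spread (SD 36.8 FPKM, n = 6) was as large as their mean of 35.8 FPKM. CL7670.Contig3_All, second by score, was more even, with 9.84, 13.5 and 32.3 FPKM at the lowest, median and highest MP library. It held 4.63, 1.39 and 2.22 FPKM in FP and 1.12, 1.98 and 3.39 FPKM at the lowest, median and highest UP library, while FG was listed at 0 in all 3 libraries. No other library reached the lowest MP library of this contig.

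Among the other members with the highest scores, CL331.Contig5_All and CL13701.Contig2_All had the most even MP levels. CL331.Contig5_All ranged over 7.07, 9.57 and 13.7 FPKM in MP, against 0.945, 1.80 and 3.51 FPKM in UP and 1.35, 1.72 and 3.25 FPKM in MG. CL13701.Contig2_All ranged over 5.27, 6.17 and 11.0 FPKM in MP, against 0.337, 0.992 and 2.60 FPKM in UP. In both, MP stood clear of all other libraries. CL13445.Contig2_All held 11.7, 28.6 and 42.1 FPKM in MP, against 0.789, 3.39 and 2.21 FPKM in FP and 2.69, 4.85 and 13.4 FPKM in UP, and UP4 at 13.4 FPKM overlapped the lowest MP library. CL3886.Contig1_All held 1.41, 7.18 and 11.3 FPKM in MP, against 0.0821, 0.575 and 2.81 FPKM in UP, and all MG, UG, FH and FG libraries were listed at 0. CL7582.Contig1_All held 2.50, 6.06 and 21.8 FPKM in MP, against 2.93, 1.69 and 0.142 FPKM in FP, so that FP1 reached into the MP range.

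The hypothalamus of the same males came next for a group of members with high scores. CL1907.Contig2_All held 15.4, 40.8 and 62.7 FPKM in MP, against 7.21, 8.95 and 12.4 FPKM in MH. In the other fish it held 1.56, 1.61 and 1.91 FPKM in FP and 9.48, 7.98 and 2.86 FPKM in FH, and 0.559, 1.89 and 3.99 FPKM in UP and 3.93, 5.15 and 6.29 FPKM in UH. The pituitary mean was above the hypothalamus mean in the males and below it in the females and the stage I fish. CL23720.Contig3_All held 7.71, 13.8 and 19.1 FPKM in MP, against 1.06, 2.67 and 5.11 FPKM in MH, and UP6 reached 8.35 FPKM. Unigene48098_All held 5.32, 12.8 and 32.2 FPKM in MP and 0.331, 2.53 and 19.4 FPKM in MH, and its MH values fell apart between fish: MH1 had 11.6 FPKM, MH4 19.4 FPKM and MH5 4.40 FPKM, while the other 3 MH libraries were under 1 FPKM. In fish 1 and, by the sample codes, in fish 4 the hypothalamus held more of it than the pituitary, where MP1 had 8.67 FPKM and MP4 5.32 FPKM. By the tissue labels of fish 4, which are the reverse of its codes, its pituitary would hold the 19.4 FPKM.

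A few abundant members made up much of the total. Mean levels in MP spanned 2.08 to 1722 FPKM, with 51 members under 10 FPKM, 39 between 10 and 100 FPKM and 10 at 100 FPKM or more. Only Unigene6145_All and CL18661.Contig1_All exceeded 1000 FPKM, and together they made up 43.3 to 57.4% of the members' summed FPKM in the MP libraries. Unigene6145_All held 798, 1761 and 2549 FPKM in MP, against 514, 625 and 798 FPKM in FP and 523, 625 and 951 FPKM in UP, so that MP4 at 798 FPKM overlapped both. The other 5 MP libraries lay at 1221 FPKM or more, above every other library. CL18661.Contig1_All held 1390, 1508 and 1745 FPKM in MP with the narrowest range of all members, 0.33 on the log2(FPKM + 1) scale. It held 596, 840 and 389 FPKM in FP, 455, 610 and 893 FPKM in UP and 221, 266 and 373 FPKM in MH. The groups did not overlap with MP, and the gonads held at most 14.9 FPKM.

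Unigene18706_All held 224, 289 and 326 FPKM in MP, against 51.3, 75.8 and 55.1 FPKM in FP and 49.0, 88.9 and 200 FPKM in UP, with no overlap. Unigene25646_All held 159, 199 and 227 FPKM in MP and 41.0, 78.0 and 207 FPKM in UP, where UP1 at 207 FPKM lay within the MP range. Unigene1360_All held 93.2, 369 and 896 FPKM in MP and 21.7, 78.4 and 64.5 FPKM in FP, and its UP libraries (60.6, 160 and 386 FPKM) overlapped with MP. CL2631.Contig2_All spread most among these, with 49.6, 232 and 646 FPKM in MP and 33.8, 90.9 and 200 FPKM in MH. It was nearly undetected in 2 of 3 female pituitaries, with 0.153 FPKM in FP1, 0 in FP2 and 29.1 FPKM in FP3.

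**Figure D2:**
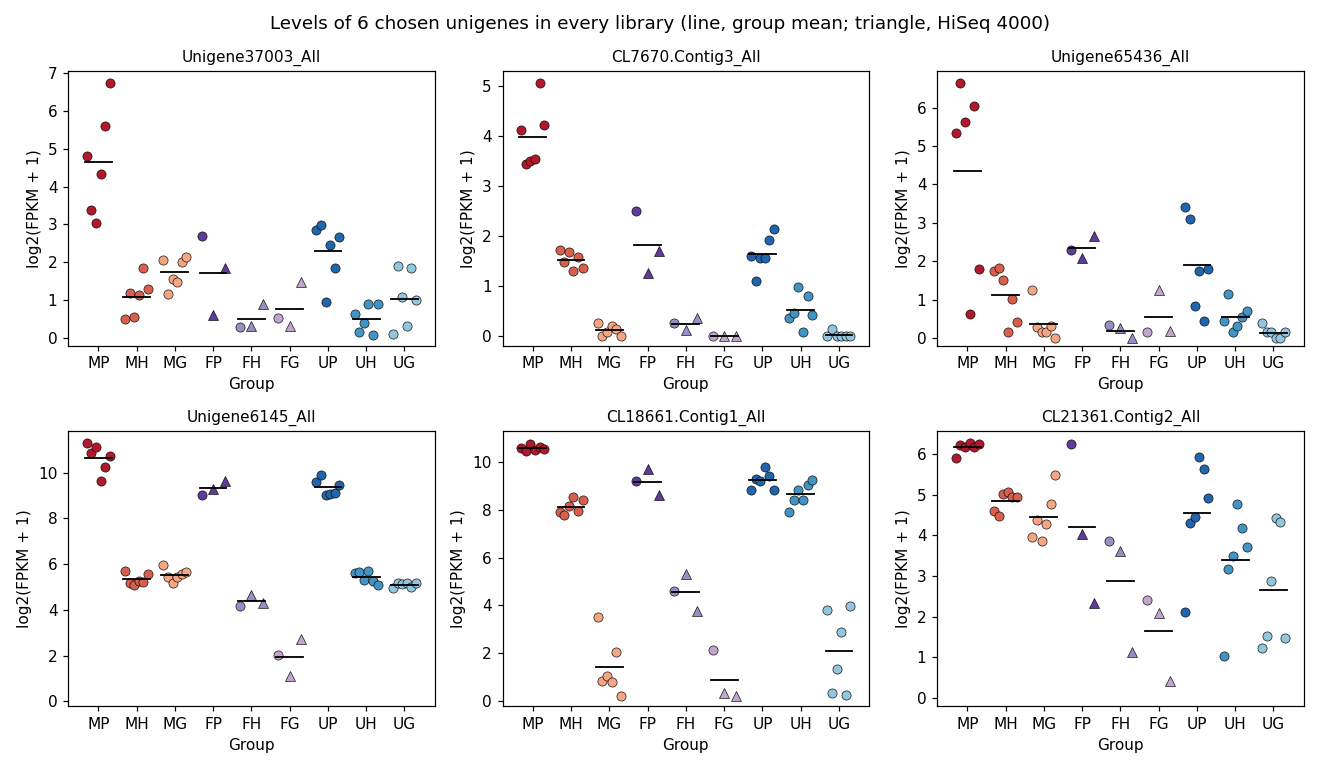
Level of 6 members in each library as log2(FPKM + 1), by group with MP at the left (line, group mean; triangles, HiSeq 4000 libraries). CL18661.Contig1_All is even over MP (1390 to 1745 FPKM), Unigene65436_All is split between fish (0.539 to 98.1 FPKM), and CL21361.Contig2_All is as high in FP1 (75.5 FPKM) as in MP.

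The males differed among themselves in many members. The range over the 6 MP libraries had a median of 2.02 on the log2(FPKM + 1) scale. It was over 3 in 15 members and under 1 in 15. All 6 MP libraries held 1 FPKM or more in 78 members, and at least 1 library was under 1 FPKM in the other 22. Unigene65436_All and Unigene54956_All had the widest ranges, 6.01 and 5.51, and their fish ranked alike. For Unigene65436_All, MP2 held 98.1 FPKM, MP5 65.0, MP3 48.5 and MP1 39.6 FPKM, against 2.47 FPKM in MP6 and 0.539 FPKM in MP4. For Unigene54956_All, MP2 held 60.9 FPKM, MP5 51.2, MP3 27.0 and MP1 25.0 FPKM, against 2.00 FPKM in MP6 and 0.357 FPKM in MP4. Both were thus high in the same 4 males and low in the same 2 males, whose values lay within or below those of the stage I pituitaries. Among the stage I fish, UP1 and UP2 held the most of both, with 9.67 and 7.59 FPKM of Unigene65436_All and 15.4 and 9.41 FPKM of Unigene54956_All.

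A second pattern set fish 1 and 6 apart from the other males. In 4 members, singled out after their values were seen, MP1 and MP6 alone were under 1 FPKM. Unigene77978_All was listed at 0 in MP1 and held 0.414 FPKM in MP6, against 5.62 to 8.93 FPKM in the other 4 MP libraries. Unigene78089_All held 0.182 and 0.193 FPKM in MP1 and MP6, against 5.03 to 12.4 FPKM in the others. Unigene77427_All held 0.264 and 0.560 FPKM there, against 3.57 to 12.1 FPKM, and Unigene7423_All held 0.634 and 0.673 FPKM, against 5.28 to 10.2 FPKM. In these 4 members no MP library lay between 0.673 and 3.57 FPKM. MP4 alone was under 1 FPKM in 5 members. The lowest of the 6 libraries was MP1 in 28 members, MP6 in 19 and MP4 in 17, so no single fish accounted for the low values.

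CL21361.Contig2_All, with the second narrowest MP range of 0.37, held 58.7, 72.5 and 76.3 FPKM in MP and 21.3, 29.8 and 32.7 FPKM in MH. The stage I fish ranked alike by its level in UP and UH, but not in UG. Fish 1 had 3.35, 1.05 and 1.36 FPKM in UP, UH and UG, and fish 4 had 59.9, 26.5 and 20.5 FPKM. Fish 6 had 29.2 and 12.1 FPKM in UP and UH, but 1.79 FPKM in UG. In the females, FP1 held 75.5 FPKM, FP2 15.3 and FP3 4.07 FPKM. Its even level in MP was not matched in UP or FP.

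The pituitary of female fish 1 stood apart from those of the other females over all unigenes. FP1 correlated best with MP2 among all libraries, with Pearson's r of 0.754 across unigenes, which are not independent replicates. Its r was 0.723 with FP2 and 0.705 with FP3, while FP2 and FP3 had an r of 0.924 and pairs of MP libraries 0.908 to 0.935. The median level of the members was 3.42 FPKM in FP1, 0.947 FPKM in FP2 and 0.578 FPKM in FP3. FP1 was the highest of the 39 other libraries for 28 members, a count for which the share over all unigenes was not computed. It exceeded the lowest MP library in 46 members (60.4% of all 107188 unigenes), against 12 for FP2 (45.1%) and 17 for FP3 (48.5%), and since the members were chosen on these values nothing is read from the difference. FP1 lay above both FP2 and FP3 in 58 members, against 49.7% of all unigenes, which is close to the background. The MP mean was above FP1 in 85 members. A share over all unigenes was again not computed, so nothing is read from this count or from the 28. Over all members the MP mean was above FP1 by a median of 1.34 on the log2(FPKM + 1) scale, and the median was 2.11 above FP2 and 2.23 above FP3. CL23293.Contig2_All held 5.36, 9.67 and 15.2 FPKM in MP and 8.20 FPKM in FP1, against 0.192 FPKM in FP2 and 0.312 FPKM in FP3. CL23054.Contig2_All held 7.21, 9.54 and 18.1 FPKM in MP and 14.8 FPKM in FP1, against 1.12 and 1.17 FPKM in FP2 and FP3. FP1 was the only female pituitary sequenced on HiSeq 2000, as all MP and UP libraries were, so that the fish and the platform cannot be told apart. Without the 9 female libraries, an alternative chosen after seeing the data, 31 of the 100 members would have been chosen, and with HiSeq 2000 libraries only, 56.

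**Figure D3:**
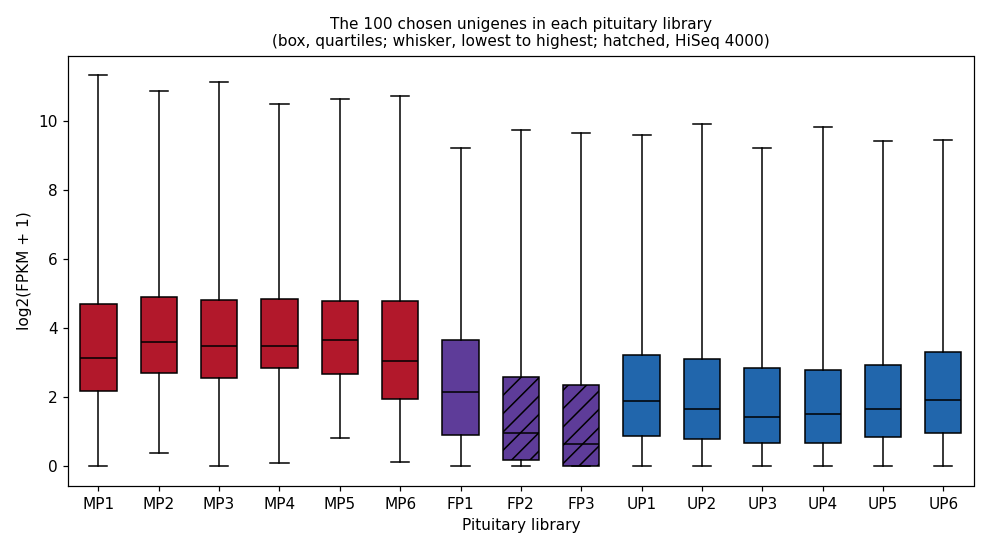
Distribution of log2(FPKM + 1) over the 100 members in each pituitary library, MP at the left (box, quartiles; whiskers, lowest and highest; hatched, HiSeq 4000). FP1 (median 3.42 FPKM) lies between the MP libraries and FP2 and FP3 (0.947 and 0.578 FPKM).

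Females against stage I fish is the comparison of stage without the males, but age changes with stage and the sex of the stage I fish is unknown. Platform differs too, because FP1 alone of the female pituitaries was sequenced on the platform of the UP libraries. The counts that follow therefore cannot be assigned to stage, and the part of platform in them was not tested separately. Where FP and UP were compared with limma, 83 members passed the filter of 1 FPKM in 3 or more libraries. Of these, 0 were called higher in FP, against 7.23% of all 84882 unigenes tested, and 8 were called lower, against 41.7%, at an adjusted p under 0.05. At an unadjusted p under 0.05 from limma, also 0 were higher and 11 were lower. The share of all unigenes at that limit was not computed, here or below. The median change of the tested members was -0.19 on the log2(FPKM + 1) scale, beside -0.56 for all unigenes tested. A high FP or UP mean lowers the score, so the choice of members bears on these counts. The lowest adjusted p among the members belonged to Unigene60282_All, which held 3.96, 6.14 and 2.78 FPKM in FP, against 9.15, 12.1 and 24.4 FPKM at the lowest, median and highest UP library. The groups did not overlap, and the log2 fold change was -1.54 ± 0.36 (SE, adjusted p = 0.0046 from limma). CL16045.Contig1_All (4.00, 1.83 and 0.595 FPKM in FP, against 3.92, 6.00 and 8.74 FPKM in UP) fell by 1.30 ± 0.34, with adjusted p = 0.0082 from limma. Unigene65443_All (0.130, 0 and 0 FPKM in FP, against 0.808, 0.966 and 4.17 FPKM in UP) fell by 1.15 ± 0.31, with adjusted p = 0.011 from limma. The MP medians of the 3 were 37.6, 16.5 and 5.58 FPKM. None of the 3 calls held with FP1 as the only female library, where the log2 fold changes were -1.59 for Unigene60282_All, -0.48 for CL16045.Contig1_All and -1.03 for Unigene65443_All, with adjusted p = 0.095, 0.32 and 0.23 from limma.

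That comparison turned on the female libraries used. With FP1 alone against UP, the HiSeq 2000 libraries, 8 of 91 tested members were higher in FP (8.39% of all unigenes) and 1 was lower (14.2%), and the lone FP1 was taken to vary like the UP libraries. Without FP1, 1 of 86 tested members was higher in FP (10.5%) and 22 were lower (46.8%). With neither choice was the members' share of higher calls far above that of all unigenes. Without UP6, 5 of 80 tested members were called, all lower, and 32569 of all 83092 unigenes were lower. After median-of-ratios scaling 1 of 79 tested members was higher (13.1% of all unigenes) and 4 were lower (29.9%).

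In the stage I fish, whose sex could not yet be told, most tested members were higher in the pituitary in each tissue comparison. The members higher in UP than in both other tissues were not counted, and the choice of members bears on these counts too. These tissues come from the same fish, and the fits given here were not paired. Between UP and UH, 54 members could be tested, and 38 were higher in UP, against 28.1% of all 80642 unigenes, and 1 was lower, against 18.2%. The median change was 1.19 for the tested members and 0.18 for all unigenes on the log2(FPKM + 1) scale. A member could enter through UP alone, where members are high, so all 100 were also tested without the filter, and 60 were then higher in UP, against 22.2% of all 118546 unigenes. Between UP and UG, 43 of 51 tested members were higher in UP (34.3% of all unigenes) and 0 were lower (11.3%, and also 0 at an unadjusted p under 0.05 from limma), with 75 of 100 higher without the filter (28.9%).

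Unigene38571_All was the clearest case, with 24.9, 30.0 and 74.5 FPKM at the lowest, median and highest UP library, while all 6 UH and all 6 UG libraries were listed at 0. It passed both tests with adjusted p = 3.0e-10 and 3.1e-10 from limma. It held 28.9, 211 and 235 FPKM in MP and 96.2, 8.82 and 174 FPKM in FP. Unigene6145_All, with 523 to 951 FPKM in UP, held 32.8 to 50.5 FPKM in UH and 29.7 to 35.6 FPKM in UG. It was higher in UP by 3.93 ± 0.17 over UH (SE, adjusted p = 3.4e-10 from limma) and by 4.25 ± 0.18 over UG (adjusted p = 7.0e-11 from limma). CL16891.Contig2_All held 11.9, 15.8 and 21.9 FPKM in UP, against 0.589, 0.787 and 1.14 FPKM in UH, a change of 3.20 ± 0.16 (SE, adjusted p = 1.2e-09 from limma). Unigene64226_All held 16.4, 26.5 and 43.2 FPKM in UP, against 0, 0.213 and 0.724 FPKM in UG, a change of 4.48 ± 0.25 (SE, adjusted p = 1.4e-09 from limma). In each of these the pituitary libraries lay clear of those of the other tissue. The member lower in UP than in UH was CL1907.Contig2_All, whose log2 fold change was -1.14 ± 0.25 (SE, adjusted p = 0.0016 from limma).

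The females showed the same direction with fewer fish. FP and FH come from the same females, and the fit given here was not paired. Between FP and FH, 39 members could be tested and 19 were higher in FP, against 5.37% of all 56314 unigenes, and 0 were lower, against 3.44%, with 1 lower at an unadjusted p under 0.05 from limma. Without the filter 9 of 100 were higher (0.762% of all unigenes). When each of the 6 libraries was left out in turn the count ran between 5, without FH2, and 17, without FP1, with 10 without FP2 and 12 without FH3. Over all unigenes the calls were 1088 of 67375 without FH2 and 4089 of 60823 without FP1. They were 1035 of 67130 without FP2 and 1977 of 67654 without FH3. CL4589.Contig2_All held 18.5, 32.7 and 20.3 FPKM in FP, against 0.439, 0.535 and 0.265 FPKM in FH, and was higher in FP by 4.10 ± 0.46 (SE, adjusted p = 6.4e-04 from limma). Unigene6145_All held 514, 625 and 798 FPKM in FP, against 17.1, 24.0 and 18.7 FPKM in FH, a change of 4.94 ± 0.57 (SE, adjusted p = 7.8e-04 from limma). Unigene18706_All held 51.3, 75.8 and 55.1 FPKM in FP, against 2.20, 4.62 and 1.77 FPKM in FH, a change of 4.05 ± 0.54 (SE, adjusted p = 0.0014 from limma). None of the 3 overlapped between the tissues. Unigene18706_All was not called between UP and UH, where its change was 0.84 ± 0.41 (SE, adjusted p = 0.11 from limma). It held 21.2 to 98.6 FPKM in UH and 44.7 to 63.0 FPKM in MH, far more than in FH. Summed over the members, FH held 149 to 180 FPKM, against 593 to 854 FPKM in UH and 712 to 936 FPKM in MH. The sums in FP (1901 to 2361 FPKM) lay within the range of UP (1849 to 2658 FPKM). The changes of FP over FH thus rest on low FH values too, and the reason for these was not tested.

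**Figure D4:**
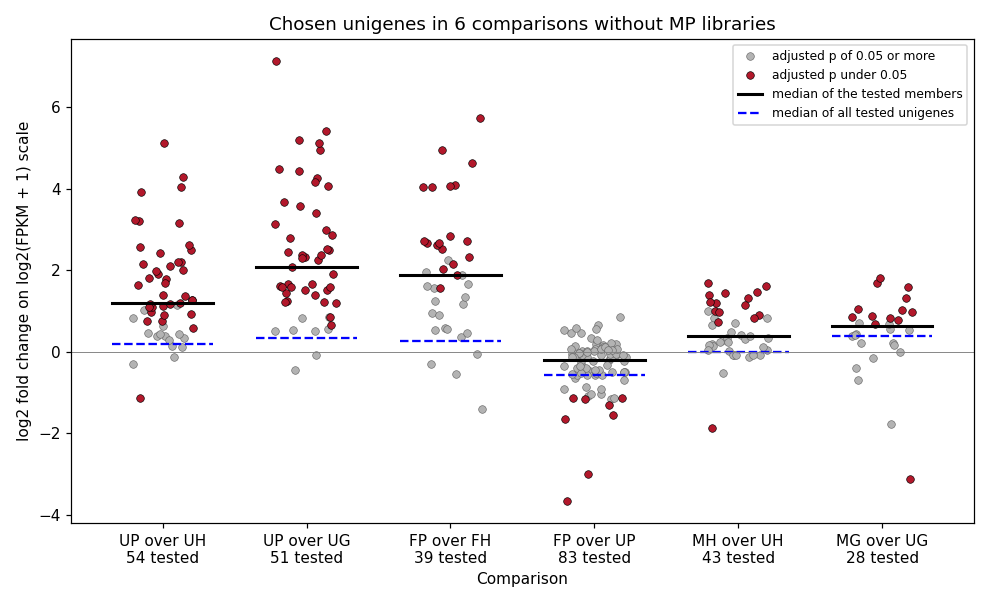
Log2 fold change on the log2(FPKM + 1) scale of each tested member in the 6 comparisons without MP libraries (red, adjusted p under 0.05; line, median of the members; dashed, median of all unigenes tested). Members lie above 0 in UP over UH, UP over UG and FP over FH (medians 1.19, 2.07 and 1.88), and near or below 0 in FP over UP (-0.19). Where a group is listed at 0 the fold depends on the 1 FPKM added.

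A part of the members was also higher in the hypothalamus of the males. Between MH and UH, 43 members could be tested, and 14 were higher in MH, against 7.21% of all 77608 unigenes, and 1 was lower, against 10.1%. The median change was 0.39 for the members and -0.01 for all unigenes. Without the filter 18 of 100 were higher (5.84% of all unigenes). MH and MP come from the same 6 males and UH and UP from the same 6 stage I fish, so these calls are not independent of the choice of members where tissues of a fish vary together. Unigene25646_All held 49.6, 58.8 and 65.9 FPKM in MH, against 27.6, 30.8 and 37.1 FPKM in UH, with no overlap and a change of 0.89 ± 0.11 (SE, adjusted p = 2.5e-04 from limma). CL7670.Contig3_All held 1.46, 1.87 and 2.31 FPKM in MH, against 0.0469, 0.354 and 0.970 FPKM in UH, a change of 1.01 ± 0.16 (SE, adjusted p = 0.0011 from limma). Its MP mean was 2.34 above UP on the same scale.

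Unigene1360_All went the other way. It held 0.446, 0.951 and 3.31 FPKM in MH, against 3.27, 6.58 and 14.3 FPKM in UH, and fell by 1.86 ± 0.29 on the log2(FPKM + 1) scale (SE, adjusted p = 0.0012 from limma). In the gonads it held 2.71, 4.97 and 8.17 FPKM in MG, against 14.9, 67.8 and 77.4 FPKM in UG, and fell by 3.11 ± 0.38 (SE, adjusted p = 1.1e-04 from limma). The gonad libraries did not overlap. In the pituitary its MP median of 369 FPKM stood above the UP median of 160 FPKM, so this unigene was lower in the males in 2 tissues and had its highest mean in their pituitary.

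Between MG and UG, 28 members could be tested, and 12 were higher in MG, against 31.1% of all 77848 unigenes, and 1 was lower, against 6.19%. Without the filter 30 of 98 were higher (27.2%). The share over nearly all members was thus close to that of all unigenes. After median-of-ratios scaling the median change of all unigenes was 0.06, against 0.39 without it, and 3 of 24 members were higher (14.7% of all unigenes) and 1 was lower (12.2%). CL23054.Contig2_All held 1.47, 4.17 and 4.68 FPKM in MG, against 0, 0.552 and 1.39 FPKM in UG, a change of 1.59 ± 0.25 (SE, adjusted p = 5.7e-04 from limma). Unigene92299_All held 1.18, 2.63 and 3.81 FPKM in MG, against 0, 0.304 and 0.891 FPKM in UG, a change of 1.32 ± 0.23 (SE, adjusted p = 8.8e-04 from limma). Their medians in MP were 9.54 and 37.1 FPKM.

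The identifiers show how the members were assembled. Contigs of a cluster of similar transcripts made up 42 members, and 58 were single unigenes, while contigs made up 53.0% of all 121952 unigenes. The 42 contigs came from 40 clusters, of which CL11125 and CL18007, named after their values were seen, held 2 members each. Since reads of similar contigs can be divided between them in the estimation, the contigs of each cluster were also summed. For 9 of the 42 the cluster has no other contig in the table, so the sum is the member itself. Of the other 33, the sum had its highest mean log2(FPKM + 1) in MP for 30 and was above the next group by more than 1 for 13. By the mean FPKM, MP was not the highest group for 7 of these 31 clusters, which held 8 members: CL23720, CL2391, CL18007, CL21361, CL21551, CL9148 and CL11202. For CL23720.Contig3_All the sum over 8 contigs averaged 28.6 FPKM in MP and 47.0 FPKM in MH, so that the cluster was not highest in the male pituitary. The sum for CL21361 was nearly the same, with 129 FPKM in MP and 129 FPKM in UP. These clusters were also named after their values were seen. In CL11125, with 8 contigs, the 2 members held 7.27 and 5.18% of the cluster's FPKM in MP, and the sum averaged 108 FPKM in MP and 101 FPKM in FP. In 19 of the 33, the member held under 50% of its cluster.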

How the data were processed

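The authors made TruSeq stranded mRNA libraries, filtered the reads with SOAPnuke, assembled 1 set of unigenes with Trinity and TGICL, removed short unigenes at low levels, aligned reads with SOAP2 and estimated levels with RSEM. Their deposited FPKM table has 121952 unigenes in 45 columns, and 0 columns were left out. FPKM are relative values without read counts, so a few very abundant transcripts can shift all others, and changes of low unigenes are understated on the log2(FPKM + 1) scale. Python 3.11.15, pandas 2.3.3 and NumPy 2.4.6 were used for the scores. Differences between groups were tested in R 4.3.3 by limma 3.58.1 (eBayes with a trend, Benjamini-Hochberg adjusted p under 0.05 over all unigenes tested), keeping unigenes at 1 FPKM or more in as many libraries as the smaller group has. The step was tested on simulated data. Members, lists and tests were chosen with earlier results of these data known. Named unigenes were the 12 highest scores, the 6 highest MP means beyond those, those at the limit, the 3 lowest adjusted p per comparison, and the 2 widest and 2 narrowest MP ranges. Own-fish libraries deviated together between tissues, with correlations of 0.120 to 0.415 for UP and UH, 0.460 to 0.634 for FP and FH and 0.0414 to 0.245 for UP and UG. The own fish was the best match in 5 of 6, 3 of 3 and 3 of 6 fish, and a library of another fish reached 0.215 between UP and UG. As these tissues come from the same fish, a fit with the fish as a replicate block was an alternative, as were a pseudocount of 0.1, no filter, another scaling, 1 fit over all groups and leaving out each library.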

Additional observations from a re-analysis of the deposited data

Results flagged for a closer look

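The gap of the highest or lowest MP library was set against Dixon's critical value for each of 31 named members and for the members' sum. These values had already chosen and named the members, so the gaps are a description. In groups not so chosen, chance passes about 1 in 20. In CL21361.Contig2_All, MP1 at 58.7 FPKM lay apart below the other 5 MP libraries, by 0.706 of the whole range on the log2(FPKM + 1) scale. The summed level of the members was lowest in MP4, at 4613 FPKM, and lay apart from the other 5 (6447 to 7171 FPKM) by 0.717 of the range. Unigene6145_All at 798 FPKM was the lowest there too. MP4 is 1 of the 2 libraries whose tissue label and sample code disagree, and the part of this in the low sum was not tested.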

How the results depend on the processing

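Of the 195 recomputed counts, 177 stayed within 1.5 times the value reported. Most of the 195 only left out 1 library, so this ratio does not measure how far the other settings move the counts. Members called in FP over UP numbered 8 as reported (41550 of all 84882 unigenes tested) and 5 after median-of-ratios scaling (34576 of 80333). They numbered 14 in 1 fit over all 9 groups (45666 of 84882) and 4 with a replicate block (17077 of 84882). In that block fit the shared number is only a number between different fish. Leaving out each library in turn gave 5 (without UP6, 38268 of 83092 unigenes) to 23 (without FP1, 50843 of 88671 unigenes). Without the filter the counts were 62 in UP over UH (43916 of 118546 unigenes) and 9 in FP over FH (1464 of 119385). They were 75 in UP over UG (46460 of 118914) and 31 in MG over UG (37630 of 118935). Median-of-ratios scaling gave 4 in MG over UG (19119 of 71037). Leaving out each library gave 5 to 17 in FP over FH (10 without FP2, 12 without FH3, 5 without FH2), 39 to 47 in UP over UH, 42 to 49 in UP over UG, 15 to 21 in MH over UH and 10 to 14 in MG over UG. Median-of-ratios scaling also moved the median change of all unigenes on the log2(FPKM + 1) scale, to -0.29 in FP over UP (-0.56 without it), -0.05 in UP over UH (0.18), -0.01 in FP over FH (0.27), 0.13 in UP over UG (0.33) and 0.06 in MG over UG (0.39). The members' medians under it were 0.05, 1.01, 1.53, 1.90 and 0.31 in the same order.

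With the fish as replicate block, the paired fit called 43 of 54 tested members in UP over UH (41322 of all 80642 unigenes). It called 25 of 39 in FP over FH (24 higher, 10705 of 56314 unigenes) and 44 of 51 in UP over UG (36760 of 77877 unigenes). Between groups of different fish the block fit called 17 in MH over UH (12962 of 77608 unigenes) and 12 in MG over UG (25855 of 77848 unigenes).

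Of the members, 60 were chosen again with a pseudocount of 0.1, 56 with HiSeq 2000 libraries only, 31 without the 9 female libraries and 81 to 100 with each library left out. Members with MP above all other libraries numbered 17, and 0 with the tissues of male fish 4 exchanged. They numbered 31 without the female libraries and 17 to 25 with each library left out. A share over all unigenes was computed only for the 17 (0.069%). Leaving out libraries can only raise this count, for members and other unigenes alike, so nothing is read from the rise. Of 277 values of single members under these alternatives, 0 reversed and 5 lost their call, all in FP over UP: Unigene60282_All, CL16045.Contig1_All and Unigene65443_All with HiSeq 2000 libraries only (adjusted p from limma 0.095, 0.32 and 0.23), and the last 2 of these with the replicate block (0.13 and 0.052).

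A fit of FP over FH on HiSeq 2000 libraries only was not run, as 1 library a group remained. The alternatives without the female libraries, and HiSeq 2000 only for the count of MP above all others, were chosen after seeing the data. The latter count was 21, without a share over all unigenes. Values near 0 FPKM carry few fragments, and FP and FH have 3 libraries each.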
